A study of Mus musculus with 6 samples.

Results

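The 47 genes described here encode the machinery that licenses DNA replication origins, fires them and copies DNA at the fork. They were taken by symbol from the deposited expression table, in which all 47 had a row, among 20273 rows in all. All 47 reached at least 1 CPM (the reads of a gene scaled by the total of its library) in at least 3 libraries and were therefore among the 11803 genes tested. The data are bulk RNA sequencing of mouse cells from small cell lung cancer (SCLC), of lung origin and labelled epithelial, in 2 groups of 3 libraries each. In the SCLC ERBB2 KO group (ERBB2 KO 1 to 3), Erbb2, a receptor tyrosine kinase gene, was targeted by transfection of a Cas9 construct, after which cells were selected with puromycin and sorted as single clones. The SCLC WT group (WT 1 to 3) carried no such edit. The methods of the study state that its murine SCLC lines came from tumours of mice with conditional deletion of Rb1 and Trp53, so that both groups would share that background. The methods describe mice of both sexes on a C57BL/6 background for that model, without saying which animals gave these cells. The study calls the 3 libraries of a group biological replicates, but the sources do not say whether separate clones, cultures or parental lines underlie them, so the p-values cover only the spread among these 6 libraries.

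DNA replication is prepared in G1, when the origin recognition complex (ORC), Cdc6 and Cdt1 load the ring-shaped MCM helicase onto DNA as an inactive double ring. In S phase, the Cdc7 kinase with its activator Dbf4, together with cyclin-dependent kinases, turns loaded MCM into a moving helicase by recruiting Cdc45 and the GINS complex. DNA polymerases, the sliding clamp PCNA and its loader RFC then copy both strands. Many genes of this set are known targets of E2F transcription factors, which the retinoblastoma protein holds in check, and Rb1 loss is a defining lesion of SCLC. In bulk libraries, a smaller share of cells in S phase and less RNA of a gene per cell cannot be told apart.

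Promoter sequence was examined first, since E2F control is a textbook property of this gene set. RefSeq promoters of the build GRCm38.p6 (equivalent to mm10), reaching from 250 bases before to 50 bases after an annotated start, were found for 38 of the 47 genes. The words TTTGGCGC, TTTCCCGC, TTTCGCGC and TTTGCCGC were searched on both strands. At least 1 of them occurred in 14 of the 38 genes (36.8%), against 442 of 8659 tested genes with a promoter (5.1%). These 14 were Orc1, Orc3, Cdc6, Cdt1, Mcm3, Mcm5, Mcm6, Mcm7, Gins3, Pola1, Pold1, Pole2, Rfc3 and Lig1. The word CCAAT, searched on both strands for comparison, occurred in 22 of the 38 genes (57.9%), against 43.5% of the tested genes. A match is a description of these letters and not evidence of a bound site. The 250 bases before the start are printed below for Cdc6 and Mcm6, the licensing genes with the largest positive differences between the groups, and for Orc6, the one with the largest negative difference. Capitals mark the searched words or their reverse complements. The Cdc6 stretch lies at chr11:98907901-98908150 on the plus strand, with its word starting 138 bases before the annotated start used here. That start is not the outer end of the gene, whose RefSeq span is 98907709 to 98923942, so the Cdc6 stretch lies inside the span. The promoters of Orc1 and Lig1 that hold a word also lie inside the spans of their genes. The Mcm6 stretch lies at chr1:128359706-128359955 on the minus strand, with words starting 110, 106 and 47 bases before the start, the first pair overlapping. The Orc6 stretch lies at chr8:85299382-85299631 on the plus strand and holds none of the words.
Cdc6: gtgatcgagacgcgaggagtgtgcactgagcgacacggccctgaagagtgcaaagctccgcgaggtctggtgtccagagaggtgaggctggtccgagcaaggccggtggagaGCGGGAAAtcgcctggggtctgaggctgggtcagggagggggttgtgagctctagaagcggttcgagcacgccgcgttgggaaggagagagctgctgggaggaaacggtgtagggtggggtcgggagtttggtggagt
Mcm6: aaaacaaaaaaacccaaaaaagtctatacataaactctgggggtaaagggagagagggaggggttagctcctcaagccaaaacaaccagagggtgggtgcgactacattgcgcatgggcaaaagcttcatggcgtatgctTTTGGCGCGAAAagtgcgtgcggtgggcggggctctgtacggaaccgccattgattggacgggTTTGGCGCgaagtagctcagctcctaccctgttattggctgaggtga
Orc6: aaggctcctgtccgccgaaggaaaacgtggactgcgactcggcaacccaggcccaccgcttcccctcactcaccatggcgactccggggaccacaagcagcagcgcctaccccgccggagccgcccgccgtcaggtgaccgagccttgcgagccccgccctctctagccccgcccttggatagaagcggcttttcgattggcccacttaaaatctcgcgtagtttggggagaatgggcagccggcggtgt

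Library totals lay between 8927464 and 11792346 reads in ERBB2 KO and between 10983855 and 13255676 reads in WT. At these depths 3 reads correspond to 0.226 to 0.336 CPM, while the 47 genes held 53 to 6837 reads each per library, so that counting error was small for nearly all of them. Erbb2 transcript was at 12.1, 6.19 and 2.80 CPM in ERBB2 KO 1 to 3, against 10.7, 3.95 and 6.64 CPM in WT 1 to 3, so its level does not separate the groups, and reads outside the edit do not check the knockout. WT 2 and WT 3 stood apart from the other libraries. Xist, the RNA of the inactive X chromosome, was at 0.112, 0.0848 and 0 CPM in ERBB2 KO 1 to 3 and at 0 CPM in WT 1, but at 208 CPM in WT 2 and 178 CPM in WT 3. Results are therefore also given against WT 1 alone, a comparison that rests on a single WT library, whose spread is assumed to equal that within ERBB2 KO. Of the epithelial markers, Krt8 and Krt18 were at 590 to 973 and 719 to 945 CPM in ERBB2 KO and at 402 to 1060 and 282 to 1103 CPM in WT, while Krt19 was at 0.112, 108 and 122 CPM in ERBB2 KO 1 to 3 and at 253, 17.2 and 33.4 CPM in WT 1 to 3, and Cdh1 was at 0 to 0.336 CPM in ERBB2 KO and at 0.182, 0.242 and 10.0 CPM in WT 1 to 3. Of the neuroendocrine markers with a row, Ncam1 was at 121 to 353 CPM in ERBB2 KO and at 277 to 1253 CPM in WT, Uchl1 was at 0 CPM in all 3 ERBB2 KO libraries and at 0.546, 26.6 and 10.7 CPM in WT 1 to 3, and Syp and Dll3 were at or below 0.560 CPM in all 6 libraries. The fibroblast marker Dcn reached 267 CPM in ERBB2 KO 1, against 0.509 and 0.312 CPM in ERBB2 KO 2 and 3 and 0.403 to 22.3 CPM in WT. Pdgfra and Pdgfrb were also highest in ERBB2 KO 1, at 30.5 and 15.8 CPM, against at most 6.92 and 3.19 CPM elsewhere. Col1a2 was at 0.896, 5.51 and 26.1 CPM in ERBB2 KO 1 to 3 and at 12.7 to 200 CPM in WT. Col3a1 was at 5.94, 72.3 and 21.7 CPM in ERBB2 KO 1 to 3 and at 0.725 to 8.92 CPM in WT. The summed level of the 6 fibroblast markers ranged from 49.0 to 321 CPM in ERBB2 KO and from 54.7 to 229 CPM in WT, and that of the 4 immune markers from 11.4 to 19.3 CPM in ERBB2 KO and from 13.5 to 22.2 CPM in WT, with Ptprc at or below 0.415 CPM in every library. Single markers differed within these sums. Cd68 was at 4.41 to 7.17 CPM in ERBB2 KO and at 1.21 to 2.37 CPM in WT, Csf1r at 7.04 to 12.0 CPM in ERBB2 KO and at 10.7 to 20.6 CPM in WT, and Col1a1 at 0.831 to 1.70 CPM in ERBB2 KO and at 2.66 to 7.65 CPM in WT. The 3 endothelial markers together stayed at or below 0.831 CPM. The part of these markers in the results below was not tested.

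As a group, the 47 replication genes were at closely similar levels in ERBB2 KO and WT cells. Their summed level was 5354, 5260 and 4937 CPM in ERBB2 KO 1 to 3, against 4735, 4864 and 5215 CPM in WT 1 to 3, which overlap. These sums correspond to 0.535%, 0.526% and 0.494% of all reads in ERBB2 KO and to 0.473%, 0.486% and 0.521% in WT. In ERBB2 KO 1 the sum includes 668 CPM of Dbf4 and 766 CPM of Lig1, against 206 to 236 and 386 to 466 CPM in WT. The median over the 47 genes of log2(CPM + 1) minus the WT mean was -0.112, -0.0071 and 0.029 in ERBB2 KO 1 to 3. In WT 1 to 3 this median was -0.097, -0.0072 and 0.049, so the groups overlap here too. Of the 47 genes, 23 had a positive log2 difference (ERBB2 KO minus WT, of log2(CPM + 1), the scale used throughout) and 24 a negative one, against 26 and 21 under quantile normalization or median centring. The median difference was -0.0047, against -0.039 over all tested genes, and the differences of single members ran from -0.80 for Orc6 to 0.73 for Cdc6. The median standard error was 0.23, against 0.298 over all tested genes. For 33 of the 47 genes the 95% confidence interval lay within a 2-fold change in either direction, beside 46.5% of all tested genes. For these 33 genes a larger mean difference between the groups lies outside the interval. The other 14 intervals reached beyond 2-fold.

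No member passed an adjusted p of 0.05 in limma with Benjamini-Hochberg adjustment over all tested genes, which called 0% of genes overall. The lowest adjusted p was 0.321 among the members and 0.267 among all genes. With voom, limma's model for reads, the count was also 0, whereas weighting the libraries by their estimated quality called 6 members, beside 14.9% of all genes. At an unadjusted p below 0.05, 4 members were higher in ERBB2 KO (8.51% of the 47, against 5.96% of all tested genes) and 2 were lower (4.26%, against 7.27%). Cdc6, Pold2, Mcm6 and Rpa1 made up the first set, Orc6 and Ccne2 the second. Counting instead the genes whose 3 ERBB2 KO and 3 WT values do not overlap, 6 members were higher in ERBB2 KO (12.8%, against 8.76% of all tested genes) and 6 were lower (12.8%, against 10.6%). These shares lie near those of all genes. The remaining 35 members overlapped between the groups.

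**Figure D1:**
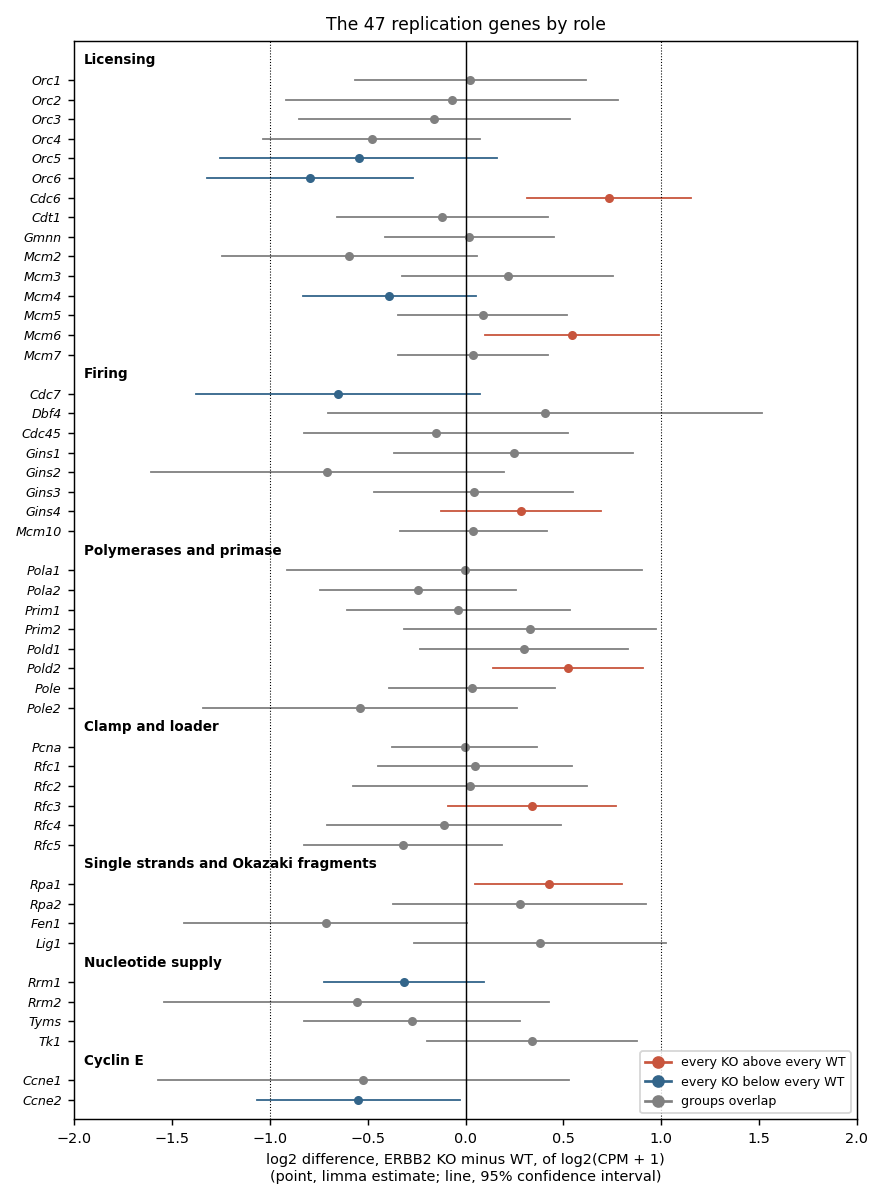
Log2 differences (ERBB2 KO minus WT, x axis) of the 47 replication genes, grouped by role down the y axis. Points are limma estimates, lines 95% confidence intervals, dotted lines mark a 2-fold change, red marks genes with every ERBB2 KO value above every WT value (6 genes), blue the reverse (6 genes) and grey overlap (35 genes). The estimates scatter on both sides of 0, from -0.80 (Orc6) to 0.73 (Cdc6).

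Among the 15 licensing genes, Cdc6 and Mcm6 were higher and Orc5, Orc6 and Mcm4 lower in every ERBB2 KO library than in any WT library, with the other 10 overlapping. Cdc6, the ATPase that joins ORC to recruit MCM (chromosome 11, 98907709 to 98923942), was at 94.9, 95.1 and 93.3 CPM in ERBB2 KO 1 to 3, against 60.0, 47.4 and 63.1 CPM in WT 1 to 3. The ERBB2 KO values were nearly equal to each other and all lay above the highest WT value. The log2 difference was 0.73 ± 0.18 (standard error, 95% confidence interval 0.31 to 1.15, limma adjusted p = 0.321). Leaving out each library in turn gave differences of 0.61 to 0.81, with an unadjusted p below 0.05 each time, and against WT 1 alone the difference was 0.65 (limma adjusted p = 0.998). The inhibitor and partner of loading next to it, geminin and Cdt1, did not share this pattern. Cdt1, which carries MCM to ORC, was at 183, 134 and 113 CPM in ERBB2 KO 1 to 3, against 141, 137 and 184 CPM in WT 1 to 3, with a log2 difference of -0.12 ± 0.23 (standard error). Gmnn, which encodes geminin, the protein that binds and blocks Cdt1, was at 47.6, 41.1 and 45.2 CPM in ERBB2 KO, against 50.4, 40.8 and 41.3 CPM in WT, with a difference of 0.019 ± 0.18. Both groups overlap for each of these genes, and the signs of these small differences depend on which libraries are included.

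Of the ORC subunits, which mark origins, 5 of 6 had a negative difference, also under both other scalings. Over all tested genes, 6274 of 11803 had a negative difference. Not every ORC sign held, as the difference was 0.35 for Orc2 without ERBB2 KO 1 and 0.046 for Orc3 against WT 1 alone. Orc5 and Orc6 did not overlap between the groups. Orc6 (chromosome 8, 85299632 to 85308279) was at 51.6, 51.6 and 56.5 CPM in ERBB2 KO 1 to 3, against 69.3, 114 and 102 CPM in WT 1 to 3. All ERBB2 KO values were below the lowest WT value, which was that of WT 1. At -0.80 ± 0.22 (standard error, 95% confidence interval -1.32 to -0.27, limma adjusted p = 0.328), its log2 difference was the largest of the 47 in size. It ran from -1.01 to -0.65 when each library was left out in turn, with an unadjusted p below 0.05 each time, and it was -0.37 against WT 1 alone (limma adjusted p = 0.998). Orc5 was at 7.95, 15.5 and 13.8 CPM in ERBB2 KO, against 16.7, 21.8 and 16.0 CPM in WT (log2 difference -0.55 ± 0.30, standard error, limma adjusted p = 0.452). The value of ERBB2 KO 1 was the lowest of the 6, and without that library the difference was -0.28. Orc1, the ATPase subunit whose level is known to follow the cell cycle, was at 15.1, 12.6 and 11.1 CPM in ERBB2 KO, against 14.6, 10.1 and 13.7 CPM in WT (0.023 ± 0.25). Orc2, Orc3 and Orc4 overlapped between the groups, at 59.9 to 158, 12.9 to 23.5 and 23.0 to 37.3 CPM in ERBB2 KO, against 98.8 to 135, 15.4 to 21.3 and 36.3 to 46.9 CPM in WT. The summed ORC level was 181, 256 and 290 CPM in ERBB2 KO 1 to 3 and 287, 325 and 290 CPM in WT 1 to 3.

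The 6 subunits of the MCM2-7 helicase form 1 ring, yet their differences ran in both directions, from -0.59 for Mcm2 to 0.55 for Mcm6. Mcm6 (chromosome 1, 128331575 to 128359705) was at 139, 139 and 127 CPM in ERBB2 KO 1 to 3, against 115, 81.0 and 84.2 CPM in WT 1 to 3. Every ERBB2 KO value exceeded every WT value, with WT 1 closest. This gave a log2 difference of 0.55 ± 0.19 (standard error, 95% confidence interval 0.10 to 0.99, limma adjusted p = 0.35), against 0.23 when WT 1 alone was used (adjusted p = 0.998). The unadjusted p was no longer below 0.05 when ERBB2 KO 2, WT 2 or WT 3 was left out. Mcm4 was at 115, 96.4 and 86.0 CPM in ERBB2 KO, against 116, 150 and 124 CPM in WT, without overlap but with ERBB2 KO 1 and WT 1 nearly level (log2 difference -0.39 ± 0.19, standard error, limma adjusted p = 0.412). Mcm2 was at 70.9, 120 and 62.5 CPM in ERBB2 KO, against 106, 118 and 147 CPM in WT, and ERBB2 KO 2 lay within the WT range (-0.59 ± 0.28, adjusted p = 0.402). Mcm5 was at 158, 193 and 185 CPM in ERBB2 KO, against 152, 153 and 202 CPM in WT (0.088 ± 0.18). Mcm3 and Mcm7 overlapped, at 217 to 309 and 257 to 333 CPM in ERBB2 KO and at 203 to 303 and 262 to 291 CPM in WT. The summed level of the 6 subunits was 975, 1187 and 1026 CPM in ERBB2 KO 1 to 3 and 1055, 989 and 1062 CPM in WT 1 to 3, again overlapping.

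**Figure D2:**
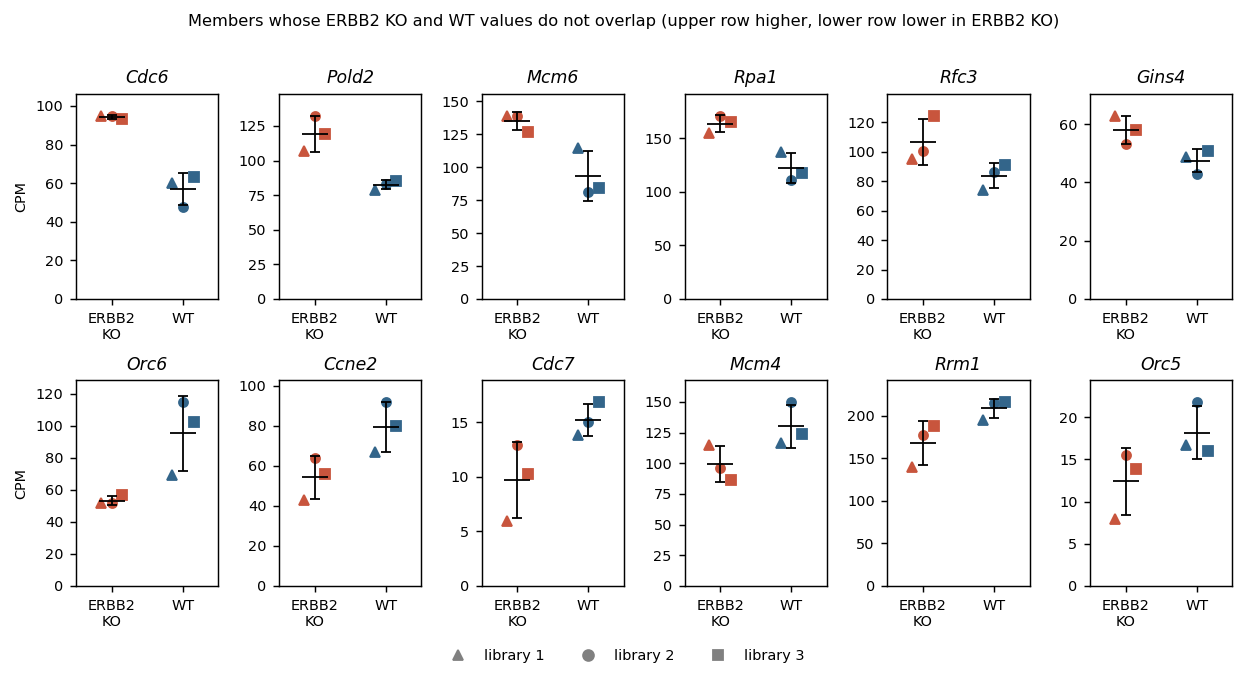
Level in CPM (y axis, from 0) of the 12 replication genes whose groups do not overlap, with ERBB2 KO libraries in red on the left and WT libraries in blue on the right of each panel. Triangles, circles and squares are libraries 1, 2 and 3, which are not known to be paired between the groups, and bars give the mean and SD (n = 3 each). Cdc6 shows 93.3 to 95.1 CPM in ERBB2 KO and 47.4 to 63.1 CPM in WT, whereas for Mcm4 the nearest values, 115 and 116 CPM, almost touch.

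Of the 8 genes that fire origins, Gins4 was higher and Cdc7 lower without overlap, and none reached an unadjusted p of 0.05. Cdc7, the kinase that phosphorylates loaded MCM, was at 5.94, 12.9 and 10.3 CPM in ERBB2 KO 1 to 3, against 13.8, 15.0 and 16.8 CPM in WT 1 to 3. The log2 difference was -0.65 ± 0.31 (standard error, limma adjusted p = 0.408), and -0.37 without ERBB2 KO 1, in which the value rests on 53 reads. Dbf4, the activating subunit of the same kinase, is described here because of its pattern, chosen after its values were seen. It was at 668, 172 and 211 CPM in ERBB2 KO 1 to 3, against 206, 214 and 236 CPM in WT 1 to 3. ERBB2 KO 1 alone was high, 1.50 log2 units above the next library, while the other 5 libraries lay close together. The log2 difference of 0.41 ± 0.47 therefore depended on that library and was -0.19 without it. Cdc45, a core part of the active helicase, was at 32.0, 20.6 and 16.1 CPM in ERBB2 KO, against 21.0, 26.7 and 26.3 CPM in WT (-0.15 ± 0.29), and the groups overlap.

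The GINS complex joins Cdc45 on the helicase, and its 4 subunits did not share a direction. Gins4 was at 63.0, 53.2 and 57.9 CPM in ERBB2 KO 1 to 3, against 48.7, 43.0 and 50.7 CPM in WT 1 to 3 (log2 difference 0.28 ± 0.17, standard error, limma adjusted p = 0.493). Gins1 and Gins3 overlapped, at 21.6 to 39.1 and 28.9 to 29.4 CPM in ERBB2 KO, against 23.6 to 28.0 and 24.6 to 36.0 CPM in WT. Gins2 was at 50.8 to 103 CPM in ERBB2 KO and at 74.1 to 175 CPM in WT (-0.71 ± 0.38, limma adjusted p = 0.446). Its WT libraries disagreed with each other, WT 1 being at 74.1 CPM and WT 2 and WT 3 at 146 and 175 CPM. Against WT 1 alone the Gins2 difference was 0.027. Mcm10, which helps to activate the helicase, averaged 73.4 ± 6.05 CPM in ERBB2 KO and 71.3 ± 1.47 CPM in WT (SD, n = 3 each).

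Among the 8 genes for replicative polymerases and primase, Pold2 was the only one whose groups did not overlap. Pold2, an accessory subunit of DNA polymerase delta (chromosome 11, 5872180 to 5878256), was at 107, 133 and 119 CPM in ERBB2 KO 1 to 3, against 78.9, 83.1 and 85.3 CPM in WT 1 to 3. The 3 WT values were tightly grouped and below every ERBB2 KO value. The log2 difference of Pold2 was 0.52 ± 0.16 (standard error, 95% confidence interval 0.14 to 0.91, limma adjusted p = 0.341), 0.45 to 0.60 with each library left out in turn (the unadjusted p was no longer below 0.05 without ERBB2 KO 2), and 0.59 against WT 1 alone (adjusted p = 0.998). Pold2 is thus a gene for which WT 1 did not lie closer to ERBB2 KO than WT 2 and WT 3 did. Its catalytic partner Pold1 was at 29.9 to 47.2 CPM in ERBB2 KO and at 28.1 to 30.5 CPM in WT, overlapping by a single ERBB2 KO library. Of polymerase epsilon, the catalytic Pole averaged 47.5 ± 5.00 CPM in ERBB2 KO and 46.3 ± 3.49 CPM in WT, and the accessory Pole2 averaged 11.3 ± 4.55 CPM in ERBB2 KO and 16.0 ± 2.49 CPM in WT (SD, n = 3 each). Pola1 and Pola2 of polymerase alpha averaged 121 ± 55.3 and 23.4 ± 4.12 CPM in ERBB2 KO, against 116 ± 32.9 and 27.7 ± 2.61 CPM in WT, and the primase genes Prim1 and Prim2 averaged 71.5 ± 6.60 and 39.0 ± 8.60 CPM in ERBB2 KO, against 75.4 ± 23.6 and 31.0 ± 8.51 CPM in WT. The groups overlapped for each of these 4 genes.

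The sliding clamp, a ring that holds polymerases on DNA, was nearly level between the groups. Pcna was at 281, 344 and 322 CPM in ERBB2 KO 1 to 3, against 320, 339 and 291 CPM in WT 1 to 3, with a log2 difference of -0.0052 ± 0.16 (standard error, 95% confidence interval -0.38 to 0.37). Its sign changed with the scaling of the libraries. Of the 5 subunits of the clamp loader RFC, Rfc3 was higher without overlap, at 95.1, 101 and 125 CPM in ERBB2 KO, against 74.1, 86.5 and 90.8 CPM in WT (0.34 ± 0.18, limma adjusted p = 0.444). Rfc1, Rfc2, Rfc4 and Rfc5 overlapped, averaging 356 ± 56.1, 58.6 ± 17.7, 8.46 ± 1.47 and 112 ± 24.6 CPM in ERBB2 KO, against 347 ± 74.1, 55.9 ± 2.24, 9.19 ± 1.35 and 138 ± 16.2 CPM in WT (SD, n = 3 each). For all 6 genes of the clamp and its loader, the confidence interval of the difference lay within 2-fold.

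Of the genes that protect single strands and join Okazaki fragments, Rpa1 was higher without overlap. Rpa1, the large subunit of the single-strand binding protein RPA (chromosome 11, 75300259 to 75348454), was at 155, 171 and 165 CPM in ERBB2 KO 1 to 3, against 137, 111 and 117 CPM in WT 1 to 3. All ERBB2 KO values lay above all WT values, by a log2 difference of 0.43 ± 0.16 (standard error, 95% confidence interval 0.048 to 0.80, limma adjusted p = 0.35), which was 0.25 against WT 1 alone (adjusted p = 0.998). Leaving out ERBB2 KO 2, ERBB2 KO 3, WT 2 or WT 3 took its unadjusted p above 0.05. In RefSeq, Rpa1 overlaps Smyd4 and Pold2 overlaps Aebp1, and since it is not stated whether counting used strand, reads of these neighbours cannot be told apart with certainty. Rpa2 was at 72.7 to 153 CPM in ERBB2 KO and at 83.3 to 94.5 CPM in WT. Fen1, the nuclease that trims Okazaki fragments, was at 34.4 to 72.3 CPM in ERBB2 KO and at 64.9 to 101 CPM in WT, overlapping through ERBB2 KO 2. The Fen1 difference was -0.72 ± 0.31 (standard error, limma adjusted p = 0.378), and -0.48 without ERBB2 KO 1. Lig1, the ligase that seals Okazaki fragments, was at 364 to 766 CPM in ERBB2 KO and at 386 to 466 CPM in WT. For Rpa2 and Lig1 the ERBB2 KO libraries differed more from each other than the WT libraries did.

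Of the 4 enzymes of deoxynucleotide supply, Rrm1, Rrm2 and Tyms were lowest in ERBB2 KO 1. Rrm1, the large subunit of ribonucleotide reductase, was at 139, 178 and 188 CPM in ERBB2 KO 1 to 3, against 195, 215 and 216 CPM in WT 1 to 3, without overlap (log2 difference -0.32 ± 0.17, standard error, limma adjusted p = 0.45). Rrm2, its small subunit, known to accumulate in S phase, was at 36.7, 103 and 116 CPM in ERBB2 KO, against 99.0, 122 and 118 CPM in WT. Only ERBB2 KO 1 was low, and the difference of -0.56 ± 0.42 became -0.040 without it. Tyms, thymidylate synthase, was at 62.7, 92.8 and 105 CPM in ERBB2 KO, against 91.5, 119 and 101 CPM in WT (-0.28 ± 0.23, and -0.060 without ERBB2 KO 1). Tk1, the salvage thymidine kinase, was at 178, 235 and 214 CPM in ERBB2 KO, against 189, 121 and 191 CPM in WT, and the groups overlapped.

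Cyclin E, which activates Cdk2 at the start of S phase, is encoded by Ccne1 and Ccne2. Ccne2 (chromosome 4, 11190433 to 11204779) was at 42.8, 64.0 and 56.2 CPM in ERBB2 KO 1 to 3, against 66.7, 91.8 and 80.0 CPM in WT 1 to 3. All ERBB2 KO values lay below all WT values, ERBB2 KO 2 and WT 1 by a narrow margin. The difference of -0.55 ± 0.22 (standard error, 95% confidence interval -1.07 to -0.029, limma adjusted p = 0.361) became -0.39 without ERBB2 KO 1, where the unadjusted p was no longer below 0.05 (nor was it without ERBB2 KO 3, WT 2 or WT 3), and -0.31 against WT 1 alone (adjusted p = 0.998). In RefSeq it overlaps Ints8. Ccne1 was at 11.3, 22.0 and 34.5 CPM in ERBB2 KO, against 18.8, 37.1 and 38.5 CPM in WT (-0.52 ± 0.45). Its ERBB2 KO libraries spread about as widely as its WT libraries, and against WT 1 alone the difference was 0.13.

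**Figure D3:**
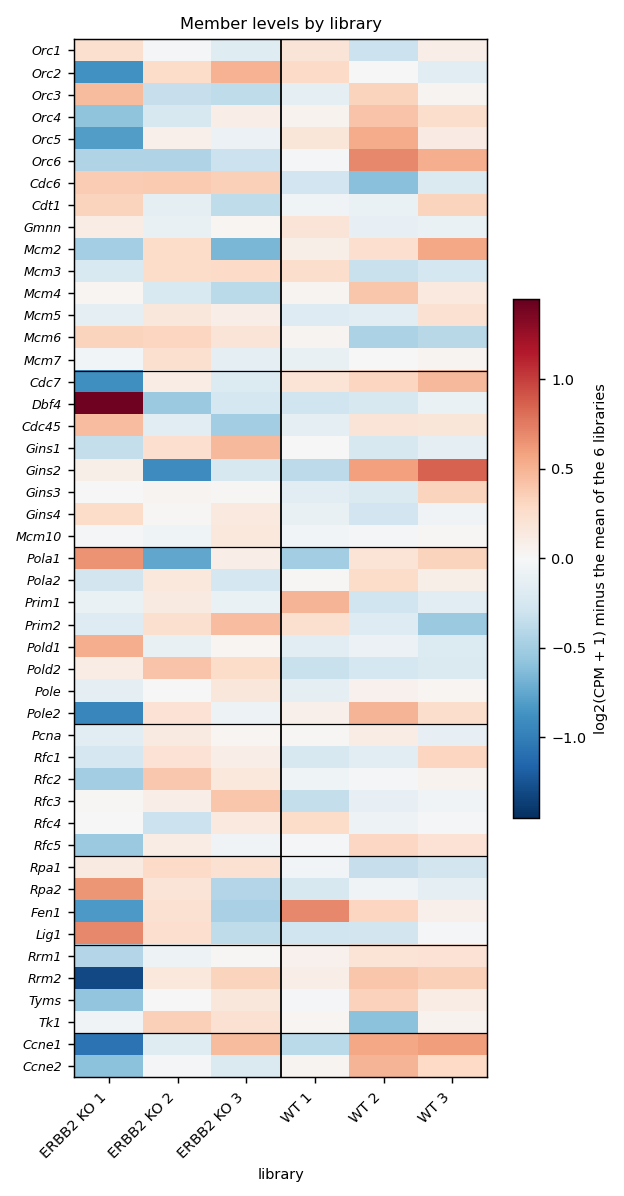
Level of each of the 47 replication genes (rows, ordered by role, with lines between the role groups) in each library (columns, ERBB2 KO left of WT), as log2(CPM + 1) minus the mean of the 6 libraries. Red is above and blue below that mean. ERBB2 KO 1 holds the deepest colours in both directions, such as Dbf4 above and Rrm2 below the other libraries.

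The spread within the groups had a structure of its own. ERBB2 KO 1 was the lowest of the 6 libraries for 18 of the 47 members, beside 25.2% of all tested genes. It was the highest for 10 members, beside 26.1% of all tested genes, and WT 2 was also the highest for 10. The SD of the deviations of ERBB2 KO 1 over the 47 genes was 0.53 log2 units. That SD was 0.29 in ERBB2 KO 2, 0.29 in ERBB2 KO 3 and 0.23 to 0.33 in WT. Over all tested genes ERBB2 KO 1 also had the widest deviations, 0.71 log2 units against 0.43 to 0.66 in the other libraries. It lay furthest below the lowest other library for Rrm2 (by 1.41 log2 units), Pole2 (0.88), Orc5 (0.73), Orc2 (0.71), Cdc7 (0.70) and Ccne1 (0.68). It lay furthest above the highest other library for Dbf4, followed by Pold1 (0.51), Lig1 (0.46) and Rpa2 (0.45). This is the library with 267 CPM of Dcn, but with the lowest Col1a2 (0.896 CPM), and with the fewest reads. The part of any of these in the pattern was not tested.

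Over the 47 genes, the median absolute log2 gap was 0.19 between ERBB2 KO 2 and ERBB2 KO 3 and 0.16 between WT 2 and WT 3. WT 1 was 0.22 from ERBB2 KO 2 and 0.24 from ERBB2 KO 3, against 0.30 from WT 2 and 0.24 from WT 3. In these genes WT 1 was thus no nearer to the other WT libraries than to ERBB2 KO 2 and 3. ERBB2 KO 1 was 0.41 to 0.53 from every other library. Over all tested genes the order was similar, with 0.27 between WT 1 and ERBB2 KO 2, 0.42 between WT 1 and WT 2 and 0.38 between WT 1 and WT 3. Against WT 1 alone, 0 members had an unadjusted p below 0.05 in limma, beside 0.686% of all tested genes higher and 1.46% lower in ERBB2 KO. In that comparison 38 of the 47 members kept the sign of their difference, beside 8423 of 11803 genes, and the median difference was 0.027. Without ERBB2 KO 1, 5 members were higher and 2 lower at an unadjusted p below 0.05, beside 6.05% of all tested genes higher and 10.6% lower. In that fit Gins1 (log2 difference 0.48) and Mcm4 (-0.50) joined the set and Ccne2 left it.

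Direction and promoter words can be set side by side as a description. Of the 14 genes with an E2F word, 10 had a positive and 4 a negative difference, with a median of 0.064. Of the 24 genes whose promoter held none, 7 had a positive and 17 a negative difference, with a median of -0.20. The 9 genes without a promoter in the table had a median of 0.021. Cdc6, Mcm6 and Rfc3 belong to the first set, and Orc6, Orc5, Cdc7 and Rrm1, but also Pold2 and Rpa1, to the second. Over all tested genes, 46.8% had a positive difference. Across the alternatives given below, the sign changed at least once in the first set for Orc1, Orc3, Cdt1, Mcm3, Mcm7, Gins3 and Pola1. In the second set it changed for Orc2, Mcm10, Cdc45, Dbf4, Prim1, Pcna, Rfc1, Rfc4 and Ccne1. The split was noticed after the values were known, and the difference between the sets was not tested.

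The rest of the replication machinery also had a median difference near 0. Of 38 other replication genes (further polymerase subunits, fork protection, chromatin assembly and nucleotide enzymes), 17 had a positive and 21 a negative difference, with a median of -0.0065. At an unadjusted p below 0.05, 0 were higher and 4 lower in ERBB2 KO in limma (5.96% and 7.27% of all tested genes), and 0 passed after adjustment. Pole4, a small subunit of polymerase epsilon, was at 36.0, 40.7 and 20.9 CPM in ERBB2 KO 1 to 3, against 49.9, 75.5 and 66.2 CPM in WT 1 to 3 (log2 difference -0.99, limma adjusted p = 0.336). Asf1a, a histone chaperone, was at 13.9, 11.3 and 12.0 CPM in ERBB2 KO, against 21.3, 23.4 and 17.0 CPM in WT (-0.68, adjusted p = 0.35). Both were lower in ERBB2 KO without overlap. Dna2, a nuclease and helicase, and Dut, which removes dUTP, had differences of -0.72 and -0.48. Dna2 was also lower without overlap, whereas Dut overlapped. Of the 38 genes, 6 were higher and 5 lower in ERBB2 KO without overlap, beside 8.76% and 10.6% of all tested genes. With WT 1 alone as the WT group, the differences of Pole4, Asf1a, Dna2 and Dut were -0.66, -0.74, -0.95 and -0.22.

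The regulators of entry into S phase included larger differences than any of the 47 members, though again 0 of 24 tested passed after adjustment in limma. At an unadjusted p below 0.05, 1 was higher and 5 lower in ERBB2 KO, beside the same 5.96% and 7.27% of all tested genes, and the median of the list was -0.21. Cdkn1a, which encodes the Cdk inhibitor p21, was at 64.4, 60.8 and 48.4 CPM in ERBB2 KO 1 to 3, against 37.0, 15.8 and 17.3 CPM in WT 1 to 3 (log2 difference 1.37, limma adjusted p = 0.321). Cdkn1b, which encodes the related inhibitor p27, was at 78.1, 62.4 and 39.8 CPM in ERBB2 KO, against 102, 147 and 151 CPM in WT (-1.17, adjusted p = 0.321). These inhibitors thus differed in opposite directions, each without overlap, and for both WT 1 lay nearest to the ERBB2 KO range. Of the 24 tested regulators, 1 was higher and 5 lower in ERBB2 KO without overlap, beside 8.76% and 10.6% of all tested genes. E2f4 and E2f8, E2F factors known mainly as repressors, had differences of -0.80 and -0.93. With WT 1 alone as the WT group, the differences of Cdkn1a, Cdkn1b, E2f4 and E2f8 were 0.62, -0.80, -0.59 and -0.48. Rb1 transcript was at 7.28, 7.12 and 7.37 CPM in ERBB2 KO and at 9.65, 7.17 and 7.85 CPM in WT, and reads outside the deleted exons do not check the deletion.

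Of 18 mitotic markers, 14 had a negative difference (12 under quantile normalization or median centring), beside 6274 of 11803 tested genes, with a median of -0.22, and 0 were higher and 4 lower in ERBB2 KO at an unadjusted p below 0.05 (5.96% and 7.27% of all tested genes), with 0 passing after adjustment in limma. Ccna2, cyclin A, which acts in S phase and G2, was at 126, 134 and 146 CPM in ERBB2 KO 1 to 3, against 196, 233 and 237 CPM in WT 1 to 3 (log2 difference -0.70, limma adjusted p = 0.321). Bub1, a spindle checkpoint kinase, was at 40.5, 55.2 and 51.3 CPM in ERBB2 KO, against 74.4, 75.7 and 77.4 CPM in WT (-0.63, adjusted p = 0.336). Neither overlapped between the groups. Of the 18 markers, 0 were higher and 5 lower in ERBB2 KO without overlap, beside 8.76% and 10.6% of all tested genes. Kif20a and Cdk1 had differences of -0.59 and -0.43. With WT 1 alone as the WT group, the differences of Ccna2, Bub1, Kif20a and Cdk1 were -0.53, -0.60, -0.20 and -0.60. Mki67, the proliferation marker, overlapped, at 426, 246 and 314 CPM in ERBB2 KO, against 295, 358 and 418 CPM in WT. The difference between these lists and the replication genes was not tested.

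**Figure D4:**
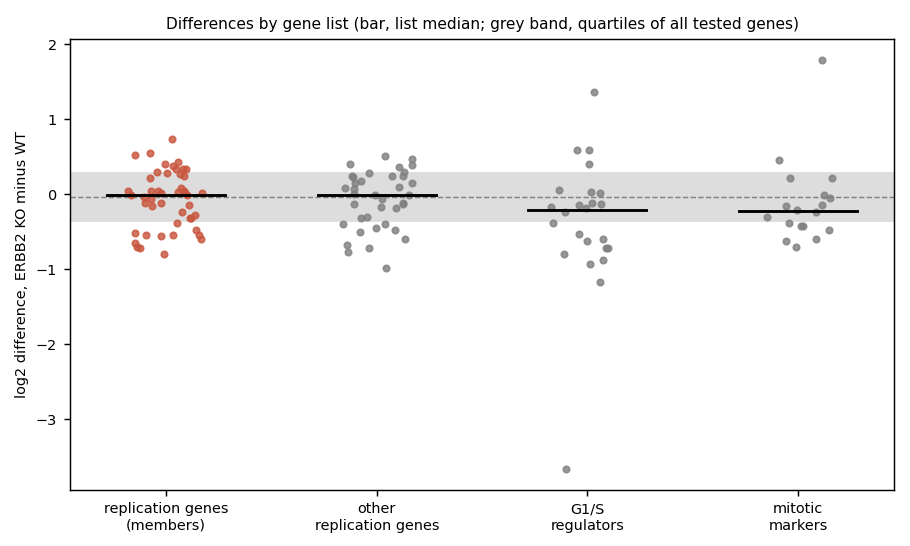
Log2 differences (ERBB2 KO minus WT, y axis) of the 47 replication genes (red) and of 3 other gene lists (grey), with 1 point a gene and a black bar at each list's median. The grey band spans the lower to the upper quartile of all tested genes (-0.35 to 0.28) and the dashed line marks their median. The outermost points, named after their values were seen, are Ccnd2 (-3.67) and Plk1 (1.79). Plk1 was at 55.9 to 85.8 CPM in ERBB2 KO and overlapped with WT 1, at 80.8 CPM. Against WT 1 alone the Plk1 difference was -0.25, so its positive difference rests on WT 2 and WT 3. The medians are -0.0047 for the replication genes, -0.0065 for other replication genes, -0.21 for G1/S regulators and -0.22 for mitotic markers.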

How the data were processed

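RNA of 3 ERBB2 KO and 3 WT libraries was sequenced by the authors. Per the labels libraries were of the TruSeq total RNA type, per the methods of the study Lexogen QuantSeq 3' libraries, and which applied was not settled. Levels are therefore not compared between genes. The submitters' processing notes name the build mm10, the aligner, counter and annotation are not given in the sources used here, and a methods passage naming GRCm39 describes mutation calling.

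The deposited table holds log2 values of CPM plus a prior, as its columns share a lowest value of -2.48 (0.179 CPM, equal to 2 reads in a library of average size). CPM was recovered by raising 2 to the value and subtracting that floor. All values (100%) were then whole reads within 0.1 of a step, which gave the library totals. The CPM limits from 3 reads cover counting error only, whereas standard errors and 95% confidence intervals are from limma and rest on the spread between libraries. In 14 rows the symbol had become a date (0.0966% to 0.184% of reads), and they were left out of the tests.

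Genes that reached 1 CPM or more in 3 or more libraries entered the fit, made on log2(CPM + 1), which understates changes of low genes, by limma 3.58.1 in R 4.3.3 (lmFit, eBayes with a trend) and with no term besides group, two-sided and Benjamini-Hochberg adjusted over all 11803 genes. An exact permutation test of 3 against 3 cannot give a p below 0.1. The fit was tested on simulated data. Members, gene lists and promoter words were chosen with earlier results of these data known. Values per library are given for members with an unadjusted p below 0.05 or without overlap and always for Mcm2, Mcm5, Orc1, Cdc6, Cdt1, Gmnn, Cdc45, Pcna, Rrm2, Tyms, Ccne1 and Ccne2, and from each other list up to 4 genes with the smallest p are named. Alternatives were another pseudocount, the deposited log2 values, other filters, quantile normalization, median centring, voom, array quality weights, a replicate block, leaving out each library, and WT 1 alone. Coordinates, gene overlaps and promoters are from RefSeq tables of GRCm38.p6, counted from 1.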

Additional observations from a re-analysis of the deposited data

How the results depend on the processing

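The count of members with an adjusted p below 0.05 was 0 under every alternative except array quality weights, which called 6 (Rpa1, Cdc6, Pold2, Mcm6, Orc6 and Gins2), beside 1759 of all genes (14.9%). At an unadjusted p below 0.05 those weights gave 7 members lower and 8 higher in ERBB2 KO, beside 20.8% and 14.6% of all genes. The number lower was 1 with quantile normalization and 1 with median centring, where Ccne2 dropped out, and 0 against WT 1 alone, where the number higher was 0 too. Leaving out each library in turn gave 1 to 5 lower and 1 to 5 higher, the extremes being 5 lower and 1 higher without ERBB2 KO 2, and 1 lower and 2 higher without WT 2 or without WT 3. Cdc6 and Orc6 kept an unadjusted p below 0.05 in each of these 6 fits. Over all genes, leaving out ERBB2 KO 1 gave 30 adjusted calls and leaving out WT 1 gave 146, none of them members. The latter included Cdkn1a (limma adjusted p = 0.0323). That fit sets ERBB2 KO against WT 2 and WT 3 only, the libraries with high Xist. Against WT 1 alone the Cdkn1a difference was 0.62. The split of all genes at an unadjusted p below 0.05 was 703 higher and 858 lower, but 821 and 742 with quantile normalization and 906 and 659 with median centring, which moved the median of all genes from -0.039 to -0.0056 and 0.027.

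Over the 16 alternatives, the sign of the difference changed at least once for 21 of the 47 members, whose main differences were at most 0.71 in size, and held for the other 26. Values follow for the members among them that are described library by library. With array quality weights the log2 difference was -0.092 for Orc1, 0.11 for Pcna and -0.10 for Dbf4. Pcna was 0.039 with quantile normalization and 0.061 with median centring. Against WT 1 alone it was -0.17 for Orc1, -0.18 for Gmnn, 0.064 for Cdc45 and 0.13 for Ccne1. With each library left out the range was -0.13 to 0.12 for Orc1, -0.31 to 0.036 for Cdt1, -0.035 to 0.12 for Gmnn, -0.41 to 0.065 for Cdc45, -0.070 to 0.077 for Pcna and -0.19 to 0.78 for Dbf4. The causes were not tested.

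Replicate numbers are shared by both groups, but the labels do not say whether they pair the libraries. Deviations of same-numbered libraries correlated at -0.22, -0.16 and -0.046 across genes, and those of differently numbered libraries at -0.21 to 0.26. Since deviations sum to 0 within each group, these correlations cannot decide whether libraries were paired. With the replicate block, 3 members were higher and 2 lower at an unadjusted p below 0.05, Rpa1 dropping out, and 0 passed after adjustment. With 3 libraries a group, the median standard error of 0.23 sets what could be seen.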
